A study of Homo sapiens with 6 samples.

Results

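The nuclear-encoded subunits of the oxidative phosphorylation complexes were examined in RNA-seq libraries of C42 cells carrying an shRNA against NSD2 (shNSD2) or a control shRNA (shCTR). Members were matched by gene symbol, with patterns for the NDUF, SDH, UQCR, COX and ATP5 families and CYC1. The patterns use no measured value, but the set was proposed with earlier results of these data known. The patterns matched 66 of the 31413 genes in the count table. Of these, 62 are subunits of complexes I to IV, with 37 in complex I, 4 in complex II, 9 in complex III and 12 in complex IV. The other 4 are pseudogene rows (ATP5F1P1, ATP5F1P3, ATP5F1P6 and ATP5F1P7), which lay below the low-count filter. The table names most ATP synthase genes by older symbols, such as ATP5A1, ATP5B and USMG5, which the patterns do not match. These genes were found by gene identifier instead, 17 subunits and the retrocopy ATP5L2, and are counted apart. NDUFA4 was counted with complex IV, to which its protein is now assigned, and COX7A2L, a factor that joins complexes III and IV into supercomplexes, was kept there too. All 62 subunits passed the low-count filter, so every count below is over all of them.

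C42 is a human prostate cancer cell line, and NSD2 (formerly WHSC1) encodes a methyltransferase acting on histones. The shNSD2 group held 3 libraries, numbered 1, 2 and 3, and the shCTR group held 3, numbered 1, 2 and 4. Both groups were C42 cells grown in RPMI with serum, and total RNA went through a kit that selects mRNA. The labels give 1 shRNA name per group, without a sequence or a time of harvest, and do not say whether libraries came from separate cultures. The p-values thus reflect only how far these libraries differ, which could be technical variation. Total counts ran from 19448983 to 20462197 in shNSD2 libraries and from 19412896 to 20665494 in shCTR libraries, and a floor of 3 counts was 0.145 to 0.156 CPM (counts scaled to library totals and TMM factors). These floors cover counting error only. NSD2 itself had 85.3, 86.4 and 89.7 CPM in shNSD2 libraries, against 219, 223 and 200 CPM in shCTR libraries. Its transcript was at 40.7% of the control level, -1.30 ± 0.087 on the log2 scale (SE; adjusted p = 8.03e-05 by edgeR's quasi-likelihood test with Benjamini-Hochberg adjustment). Permuting the 6 libraries exactly (two-sided) returned p = 0.1, which is as low as this design can reach. All 9 luminal prostate markers had a row, with summed levels of 10504 to 10962 CPM in shNSD2 libraries and 11169 to 12243 CPM in shCTR libraries. Markers of other cell types, 8 of 14 with a row, summed to 15.4 to 18.7 CPM in shNSD2 libraries and 12 to 12.3 CPM in shCTR libraries, with 2 of the 8 under the floor in every library and 0 at a count of 0 in all. In bulk RNA, fewer cells of a type and less RNA per cell cannot be told apart.

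Oxidative phosphorylation takes place in the inner mitochondrial membrane. Complex I takes electrons from NADH and complex II takes them from succinate, and both pass them through coenzyme Q to complex III and through cytochrome c to complex IV, where oxygen is reduced. Complexes I, III and IV pump protons, and ATP synthase uses the proton gradient to make ATP. Mitochondrial DNA encodes the membrane core of complex I, cytochrome b, the catalytic core of complex IV and part of ATP synthase, while the nucleus encodes the subunits described here. The table holds 0 mitochondrially encoded rows, so the mitochondrial share of the complexes was not analysed here.

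Promoters of nuclear subunit genes are known for sites of the factors NRF1, GABP (an ETS family factor) and YY1. RefSeq promoters of GRCh38.p14 were matched by symbol for 52 of the 62 subunits. Each window of 300 bases, 250 before and 50 after the annotated start, was searched on both strands for GCGCA and GCGC with any 1 base between them (NRF1), CCGGAAG (ETS) and AANATGGCG (YY1). The NRF1 letters were in 12 of the 52 windows, which is 23.1%, against 6.28% of all 27305 windows. The ETS letters were in 15 (28.8%, against 10.7% of all windows), and the YY1 letters were also in 15 (28.8%, against 3.37%). At least 1 of the 3 was in 32 of the 52 windows (61.5%, against 17.9% of all), and matches of different motifs overlapped in 0 windows. Of the 33 matched subunits called higher below, 7 held the NRF1 letters, 11 the ETS letters and 8 the YY1 letters, and of the 19 not called the numbers were 5, 4 and 7. A match is a run of letters and not a shown binding site. The 250 bases before the start are printed for the subunit of smallest p in each of the 4 complexes and for NDUFS1, a core subunit that was not called, with NRF1, ETS and YY1 matches in capitals.
NDUFS8, chr11:68030431-68030680, plus strand: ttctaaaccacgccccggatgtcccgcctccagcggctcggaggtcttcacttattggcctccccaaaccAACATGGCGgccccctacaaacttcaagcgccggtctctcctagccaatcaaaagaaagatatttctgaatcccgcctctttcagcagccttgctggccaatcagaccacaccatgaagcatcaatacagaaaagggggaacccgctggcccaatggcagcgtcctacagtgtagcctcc
SDHB, chr1:17054033-17054282, minus strand: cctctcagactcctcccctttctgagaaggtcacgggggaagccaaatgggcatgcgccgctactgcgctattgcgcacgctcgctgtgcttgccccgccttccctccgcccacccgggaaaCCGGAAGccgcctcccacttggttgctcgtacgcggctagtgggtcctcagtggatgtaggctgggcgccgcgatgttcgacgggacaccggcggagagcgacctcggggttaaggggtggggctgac
UQCRC1, chr3:48609647-48609896, minus strand: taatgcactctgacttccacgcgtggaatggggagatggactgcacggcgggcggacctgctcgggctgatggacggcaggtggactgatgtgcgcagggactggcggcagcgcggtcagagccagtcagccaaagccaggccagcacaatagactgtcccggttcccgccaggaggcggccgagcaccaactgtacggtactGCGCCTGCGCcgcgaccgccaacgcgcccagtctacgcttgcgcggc
COX5B, chr2:97645812-97646061, plus strand: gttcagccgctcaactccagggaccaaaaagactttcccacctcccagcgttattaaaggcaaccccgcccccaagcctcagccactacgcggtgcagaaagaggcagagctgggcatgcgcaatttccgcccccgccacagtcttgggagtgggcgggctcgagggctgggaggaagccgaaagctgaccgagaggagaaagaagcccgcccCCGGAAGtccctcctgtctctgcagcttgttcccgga
NDUFS1, chr2:206159445-206159694, minus strand: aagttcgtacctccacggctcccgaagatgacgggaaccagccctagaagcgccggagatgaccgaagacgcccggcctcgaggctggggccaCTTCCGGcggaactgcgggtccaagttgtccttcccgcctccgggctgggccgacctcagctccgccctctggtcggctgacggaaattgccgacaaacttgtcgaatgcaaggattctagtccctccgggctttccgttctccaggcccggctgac
NDUFS8 shows the YY1 letters, UQCRC1 the NRF1 letters on the opposite strand, and SDHB and COX5B the ETS letters. NDUFS1 also shows the ETS letters, on the opposite strand. The full 300-base windows of SDHB, UQCRC1 and NDUFS1 held the YY1 letters too, but not within the 250 bases printed.

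Subunit transcripts were mostly higher in shNSD2 libraries, by modest amounts. Of the 62 subunits, 36 rose and 0 fell at an adjusted p under 0.05, against 15.5% of all 17160 tested genes called higher and 15.2% called lower. The log2 fold change was positive for 57 subunits and negative for 5, against 50.5% positive over all genes. Its median was 0.43, a 1.35-fold difference, against a median of 0.005 over all genes, and it ranged from -0.66 to 0.81. At an unadjusted p under 0.05 edgeR had 50 subunits higher and 1 lower, NDUFV2. At an adjusted p under 0.05 the DESeq2 Wald test and limma-voom each called 40 higher and 0 lower. Of all genes, DESeq2 called 14.0% higher and 15.0% lower, and limma-voom 16.0% higher and 14.7% lower. Summed over the 62 subunits, levels were 8866, 8893 and 9447 CPM in shNSD2 libraries, against 5794, 6314 and 8265 CPM in shCTR libraries.

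The 3 control libraries were far apart, in these genes and over all tested genes. Over all tested genes, chi-square per gene, a measure of how far the counts of 2 libraries differ, was 42.7 for shCTR 1 and 4. It was 20.4 for shCTR 2 and 4, 10.8 for shCTR 1 and 2, and 4.07 to 9.81 for pairs of shNSD2 libraries. The counts in the next sentence are not given here for all genes. shCTR 4 was the highest control for 58 of the 62 subunits, shCTR 1 the lowest for 50, and the SD was larger among shCTR than among shNSD2 libraries for 58. Relative to the mean of shCTR 1 and 2 in log2 CPM, the median subunit stood at 0.58, 0.54 and 0.69 in the shNSD2 libraries and at 0.47 in shCTR 4. Projected gene by gene on the shift from shCTR 1 and 2 to the shNSD2 mean, shCTR 4 lay 78.7% of the way over the 62 subunits and 49.1% over 11218 genes of at least 5 CPM. Both the shift and the place of shCTR 4 are taken from the same mean of shCTR 1 and 2. Noise in that mean alone would put these shares above 0, so they do not measure how far shCTR 4 truly lies. Every shNSD2 library exceeded every shCTR library for 41 of the 62 subunits, against 24.0% of all genes, and 21 overlapped. Against shCTR 1 and 2 alone every shNSD2 library was higher for 57 subunits, against 34.4% of all genes. The labels give no batch, and what sets shCTR 4 apart was not tested.

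**Figure D1:**
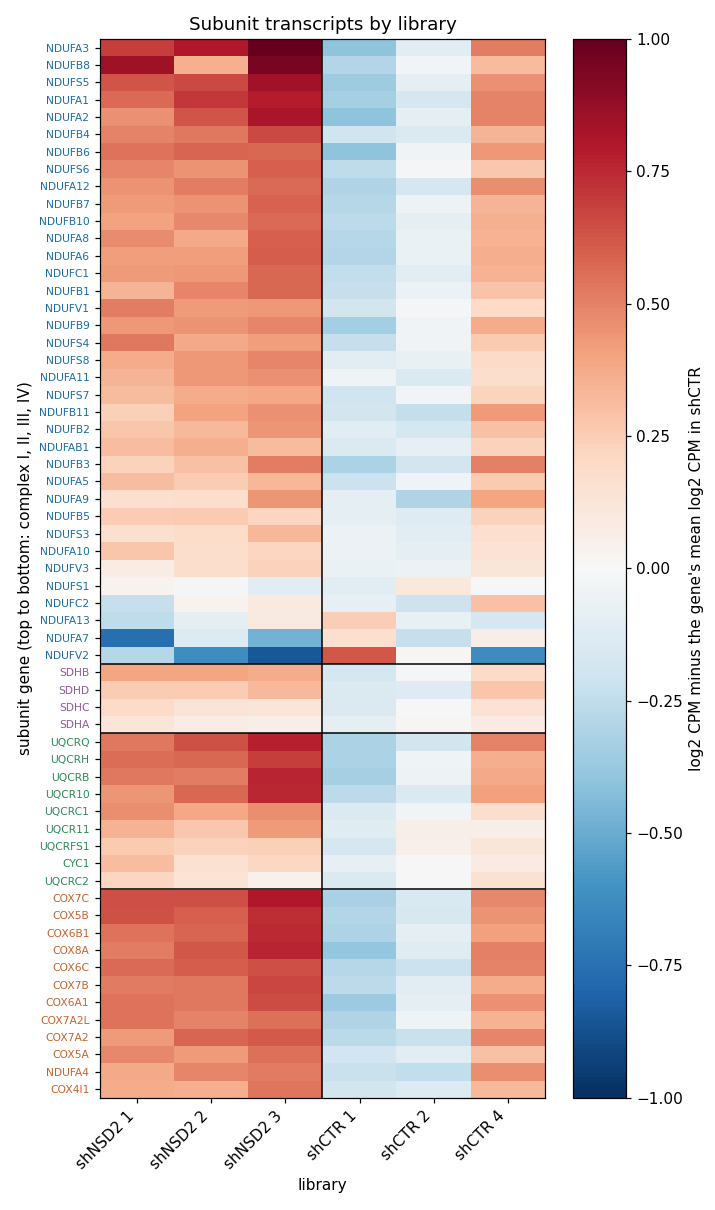
Heat map of 61 of the 62 subunit genes (rows, by complex from I at the top to IV, each ordered by fold change) in the 3 shNSD2 and 3 shCTR libraries (columns), coloured by log2 CPM minus the gene's mean log2 CPM in shCTR. The shNSD2 columns are red for most genes, shCTR 1 and 2 are pale or blue, and shCTR 4, the highest control for 58 of 62 subunits, is red as well.

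The number of calls depended on which libraries were kept, in the subunits as over all genes. Leaving out shNSD2 1, 2 or 3 left 10, 12 or 1 subunits called higher, and leaving out shCTR 1 or 2 left 14 or 0, while leaving out shCTR 4 gave 55 higher and 1 lower (NDUFV2). Over all genes these fits called 1379 of 17727, 1467 of 17725 and 1116 of 17622 higher without shNSD2 1, 2 and 3. They called 1491 of 17528 and 1172 of 17635 without shCTR 1 and 2, and 4251 of 17756 without shCTR 4. With all 6 libraries the number was 2658 of 17160. No subunit was called in all 6 of the fits that leave a library out. Without shCTR 2, 34 subunits were higher at an unadjusted p under 0.05. The median log2 fold change stayed between 0.32 and 0.61 and 57 or 58 subunits stayed positive in each of the 6.

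**Figure D2:**
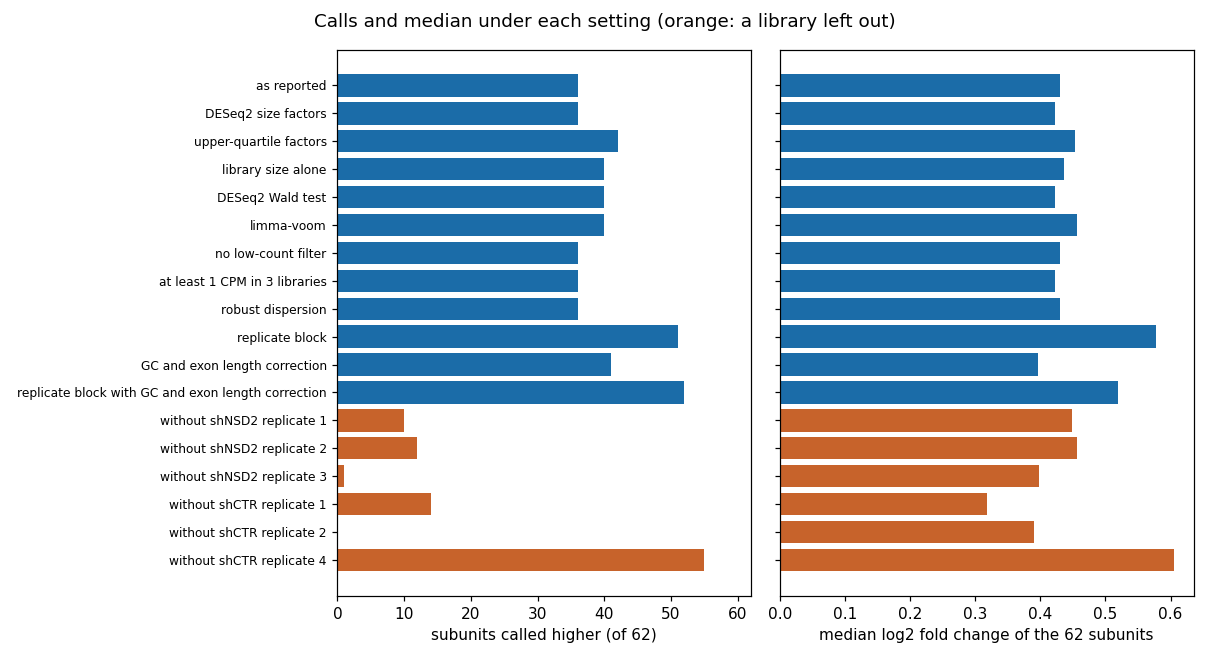
Number of the 62 subunits called higher (left, edgeR adjusted p under 0.05 unless another test is named) and their median log2 fold change, shNSD2 over shCTR (right), as reported and under each alternative, with fits that leave out 1 library in orange. Calls run from 0 without shCTR 2 to 55 without shCTR 4, while the median runs from 0.32 to 0.61. Over all genes, calls higher ran from 1116 of 17622 without shNSD2 3 to 4251 of 17756 without shCTR 4.

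Complex I, the NADH dehydrogenase, had 19 of 37 subunits higher and 0 lower, against 15.5% and 15.2% of all genes. The median log2 fold change of complex I was 0.42. Its core subunits carry the flavin and the iron-sulfur clusters, and 2 of the 7 nuclear ones were called, with a median of 0.24. Of the 30 accessory subunits, which surround the core and serve assembly and stability, 17 were called, with a median of 0.44. The difference between these classes was not tested.

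NDUFS8, a core subunit with iron-sulfur clusters at chr11:68030617-68036644 on GRCh38, had 131, 137 and 142 CPM in shNSD2 libraries, against 93.6, 96.2 and 116 CPM in shCTR libraries. The groups did not overlap, and the log2 fold change was 0.42 ± 0.10 (SE; edgeR adjusted p = 0.0116). NDUFV1, which binds the flavin and oxidises NADH (chr11:67605653-67612554), had 251, 236 and 237 CPM in shNSD2 libraries, against 155, 173 and 202 CPM in shCTR libraries. It was higher by 0.45 ± 0.11 on the log2 scale (SE; edgeR adjusted p = 0.0122), again without overlap. NDUFS1, the largest core subunit, had 140, 136 and 127 CPM in shNSD2 libraries and 127, 147 and 137 CPM in shCTR libraries. Its groups overlapped fully, with a log2 fold change of -0.03 ± 0.09 (edgeR adjusted p = 0.827).

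Among accessory subunits, NDUFA3 (chr19:54102728-54109257) had the highest fold change of the 62. Its levels were 43.7, 47.0 and 56.3 CPM in shNSD2 libraries, against 20.5, 25.0 and 38.5 CPM in shCTR libraries, with a log2 fold change of 0.81 ± 0.19 (SE; edgeR adjusted p = 0.0124). NDUFS5 had 180, 184 and 209 CPM in shNSD2 libraries, against 91.0, 109 and 160 CPM in shCTR libraries. NDUFA1, an X-linked subunit (chrX:119871487-119876662), had 135, 149 and 157 CPM in shNSD2 libraries, against 72.5, 81.4 and 129 CPM in shCTR libraries. In both genes shCTR 4 lay much closer to the shNSD2 libraries than to shCTR 1, yet below all of them, and the log2 fold changes were 0.67 ± 0.17 and 0.64 ± 0.18 (SE; edgeR adjusted p = 0.017 and 0.0235). NDUFB4 had 504, 513 and 562 CPM in shNSD2 libraries, against 311, 322 and 452 CPM in shCTR libraries (log2 fold change 0.54 ± 0.14). NDUFB10 had 291, 308 and 326 CPM in shNSD2 libraries, against 184, 207 and 282 CPM in shCTR libraries (log2 fold change 0.46 ± 0.15). By family, 7 of 13 NDUFA subunits (NDUFAB1, the mitochondrial acyl carrier protein, included), 7 of 13 NDUFB and NDUFC subunits and 3 of 4 accessory NDUFS and NDUFV subunits were called higher.

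All 5 subunits with a negative log2 fold change were in complex I, and 4 of these are sparse in this table. NDUFV2, a core subunit with an iron-sulfur cluster, had 3.37, 2.67 and 2.28 CPM in shNSD2 libraries and 6.31, 4.14 and 2.66 CPM in shCTR libraries, with a log2 fold change of -0.66 ± 0.29 (edgeR adjusted p = 0.103). NDUFA7 had 1.48, 2.26 and 1.79 CPM in shNSD2 and 2.79, 2.12 and 2.61 CPM in shCTR libraries (log2 fold change -0.44 ± 0.22, edgeR adjusted p = 0.148). NDUFA13, also named GRIM19, averaged 4.61 CPM in shNSD2 and 4.91 CPM in shCTR libraries, and NDUFC2 averaged 15.3 CPM in shNSD2 and 15.7 CPM in shCTR libraries. Those groups overlapped, and neither gene was called.

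Counting limits bear on these genes. The 8 subunits with a mean under 20 CPM were all in complex I (NDUFV2, NDUFA7, NDUFA13, NDUFB8, NDUFA11, NDUFS7, NDUFC2 and NDUFA9), and all 8 share exon bases with another annotated gene in GENCODE 29, as do 24 of the other 54, among them NDUFA1 (44.5%) and NDUFB11 (44.9%) at high counts. The shared part was 28.4% of exon bases for NDUFV2, 33.5% for NDUFA7, 48.5% for NDUFB8, 49.1% for NDUFS7 and 10.6% to 21.0% for the other 4. Same-strand partners include AP005263.1 for NDUFV2 and a readthrough gene, NDUFC2-KCTD14, for NDUFC2, whose own levels were not analysed here. How the authors' counting treated reads in shared exons is not given, so the levels of these 8 are uncertain, and the part of this in their values was not tested. Of the 8, 2 were called higher and 4 had a negative fold change. NDUFB8, 1 of the called ones, had 8.31, 5.91 and 8.92 CPM in shNSD2 libraries, against 3.77, 4.53 and 5.73 CPM in shCTR libraries (log2 fold change 0.73 ± 0.20). Of the 54 subunits of 20 CPM or more, 34 were called higher and 53 were positive, with NDUFS1 the exception, and their median was 0.46.

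**Figure D3:**
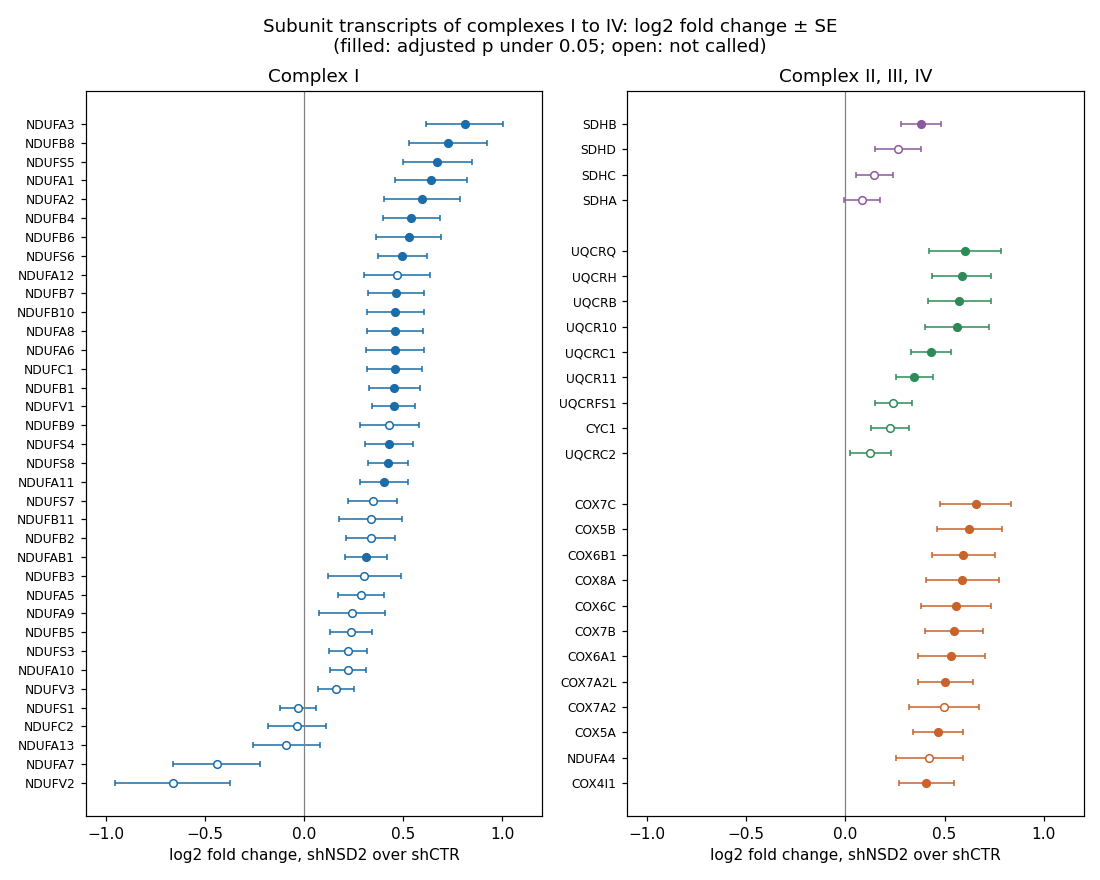
Log2 fold change, shNSD2 over shCTR, with its standard error for 61 of the 62 subunits, complex I on the left and complexes II, III and IV on the right; filled points have an edgeR adjusted p under 0.05. The 5 negative values are all in complex I, and complex IV values lie between 0.41 and 0.66.

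Complex II, succinate dehydrogenase, had 1 of 4 subunits called higher and 0 lower, against 15.5% and 15.2% of all genes. The median log2 fold change was 0.21, or 0.32 with the GC content and exon length correction. Complex II belongs to the tricarboxylic acid cycle as well as to the respiratory chain and is encoded wholly in the nucleus. SDHB, the iron-sulfur subunit (chr1:17018722-17054170), had 101, 101 and 99.2 CPM in shNSD2 libraries, against 68.2, 75.9 and 87.8 CPM in shCTR libraries. The groups did not overlap (log2 fold change 0.38 ± 0.10, SE; edgeR adjusted p = 0.018). SDHA, the flavin subunit that oxidises succinate, had 228, 221 and 218 CPM in shNSD2 libraries and 196, 211 and 222 CPM in shCTR libraries. SDHC, a membrane anchor, had 138, 132 and 131 CPM in shNSD2 libraries and 109, 121 and 133 CPM in shCTR libraries. Neither SDHA nor SDHC was called, with log2 fold changes of 0.08 and 0.15, and shCTR 4 lay within the shNSD2 range in both. SDHD, the other anchor, averaged 77.5 ± 2.16 CPM in shNSD2 and 64.6 ± 11.2 CPM in shCTR libraries (SD, n = 3 each) and was also not called. With 4 members, the count moved to 3 without shCTR 4 and to 3 after a correction for GC content and exon length.

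In complex III, the cytochrome c reductase, 6 of 9 subunits rose and 0 fell, against 15.5% and 15.2% of all genes. The median log2 fold change was 0.43, or 0.28 with the GC content and exon length correction. All 5 small subunits (UQCRH, UQCRB, UQCRQ, UQCR10 and UQCR11) were called, with a median of 0.57. Of the 4 catalytic and core proteins, UQCRC1 alone was called, and their median was 0.23. The difference between these classes was not tested, and their median exon lengths differ, at 1472 bases for the small subunits and 3355 for the others. With the GC content and exon length correction UQCR11 was no longer called and UQCRFS1 was (edgeR adjusted p = 0.0668 and 0.0389). UQCRC1, a core protein at chr3:48599002-48610976, had 295, 279 and 294 CPM in shNSD2 libraries, against 193, 209 and 241 CPM in shCTR libraries (log2 fold change 0.43 ± 0.10, SE; edgeR adjusted p = 0.0125). UQCRH, the hinge protein that aids contact with cytochrome c, had 280, 283 and 307 CPM in shNSD2 libraries, against 152, 184 and 244 CPM in shCTR libraries (log2 fold change 0.59 ± 0.15; edgeR adjusted p = 0.0165). Neither gene's groups overlapped. UQCR11 had 31.2, 29.6 and 33.0 CPM in shNSD2 libraries, against 22.6, 25.5 and 25.6 CPM in shCTR libraries, so here shCTR 4 lay beside shCTR 2. CYC1, which carries the haem of cytochrome c1, had 414, 371 and 386 CPM in shNSD2 libraries, against 316, 332 and 354 CPM in shCTR libraries. Its groups did not overlap, but it was not called (log2 fold change 0.23, edgeR adjusted p = 0.0985), and the sign turned to -0.05 with the GC content and exon length correction. The Rieske iron-sulfur protein UQCRFS1 and the core protein UQCRC2 had log2 fold changes of 0.24 and 0.13 and were not called without the correction. UQCRHL, a near-identical copy of UQCRH, had 23.0 ± 1.48 CPM in shNSD2 and 14.6 ± 6.07 CPM in shCTR libraries (SD, n = 3 each), and reads of this pair may have been split between them.

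Complex IV, cytochrome c oxidase, shifted within a narrow range. Of its 12 members, 10 were called higher and 0 lower, against 15.5% and 15.2% of all genes. All 12 log2 fold changes were positive between 0.41 and 0.66, with a median of 0.54. Every member was higher in all shNSD2 libraries than in shCTR 1 and 2, against 34.4% of all genes. This was also so for all 4 complex II, all 9 complex III and all 17 ATP synthase subunits. The highest library was shNSD2 3 for all 12, and it was the highest shNSD2 library for 46 of the 62 subunits. COX5B, a matrix-side subunit at chr2:97646040-97648383, had 157, 153 and 169 CPM in shNSD2 libraries, against 82.7, 90.7 and 138 CPM in shCTR libraries (log2 fold change 0.63 ± 0.16, SE; edgeR adjusted p = 0.0176). COX7B had 187, 188 and 208 CPM in shNSD2 libraries, against 109, 121 and 169 CPM in shCTR libraries (log2 fold change 0.55 ± 0.15). COX6B1, on the side facing cytochrome c, had 227, 234 and 262 CPM in shNSD2 libraries, against 126, 146 and 207 CPM in shCTR libraries (log2 fold change 0.60 ± 0.16). In all of these shCTR 4 stood alone between the other controls and the shNSD2 libraries. COX7C, with the highest fold change of the complex, had 400, 399 and 446 CPM in shNSD2 libraries, against 204, 230 and 356 CPM in shCTR libraries (log2 fold change 0.66 ± 0.18). COX4I1, the regulatory subunit present in most tissues, averaged 449 ± 30.4 CPM in shNSD2 and 338 ± 69.6 CPM in shCTR libraries (SD, n = 3 each) and was called at an edgeR adjusted p of 0.0472. COX7A2 and NDUFA4 were not called, at log2 fold changes of 0.50 and 0.42, and shCTR 4 lay within the shNSD2 range in both. COX7A2L was higher by 0.50 ± 0.14 on the log2 scale (SE).

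**Figure D4:**
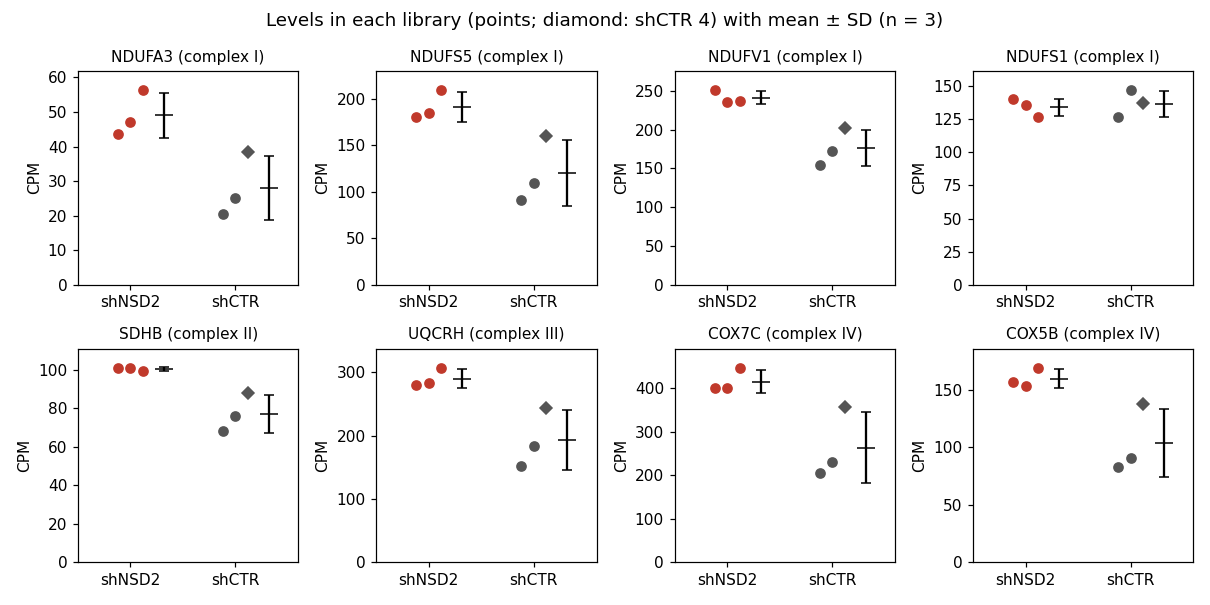
CPM of 8 subunits in each library, shNSD2 (red) left of shCTR (grey), with shCTR 4 as a diamond and the mean ± SD of 3 libraries beside the points. In 7 of the panels the shNSD2 libraries lie above all controls with shCTR 4 the nearest, and in NDUFS1 the groups overlap.

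ATP synthase gave the following picture in genes that the symbol patterns did not reach. Of its 17 nuclear subunits 12 rose and 0 fell, against 15.5% of all genes called higher and 15.2% lower. Their median log2 fold change was 0.52 and all 17 were positive, against 50.5% of all genes. The 5 small membrane subunits were all called, as were 3 of 4 peripheral stalk subunits, 1 of 3 genes for the c ring, and the central stalk subunits ATP5C1, ATP5D and ATP5E. ATP5D, the delta subunit of the central stalk, had 242, 235 and 261 CPM in shNSD2 libraries, against 135, 150 and 196 CPM in shCTR libraries (log2 fold change 0.62 ± 0.13, SE; edgeR adjusted p = 0.00777). ATP5G2, 1 of the 3 c ring genes, had 242, 247 and 267 CPM in shNSD2 libraries, against 129, 153 and 208 CPM in shCTR libraries (log2 fold change 0.63 ± 0.15; edgeR adjusted p = 0.0129). ATP5I, the e subunit, had 14.5, 15.4 and 16.9 CPM in shNSD2 libraries, against 6.21, 8.53 and 10.4 CPM in shCTR libraries (log2 fold change 0.90 ± 0.17; edgeR adjusted p = 0.00429), with 61.6% of its exon bases shared with other genes. The catalytic beta subunit ATP5B, by contrast, had 1540, 1470 and 1390 CPM in shNSD2 libraries and 1250, 1390 and 1450 CPM in shCTR libraries. Its groups overlapped, and neither it nor the alpha subunit ATP5A1, its partner in the catalytic head, was called, at log2 fold changes of 0.10 and 0.21. Without single libraries the count of called ATP synthase subunits ran from 2 (without shNSD2 3, and without shCTR 2) to 16 (without shCTR 4), and was 4, 4 and 5 without shNSD2 1, shNSD2 2 and shCTR 1. Of all genes, 1116 of 17622, 1172 of 17635 and 4251 of 17756 were higher without shNSD2 3, shCTR 2 and shCTR 4.

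Levels per kilobase of merged exon length placed NDUFS5 first among the 62, at 349 CPM per kb in shNSD2 and 219 in shCTR libraries. NDUFB10 followed at 288 CPM per kb in shNSD2 and 210 in shCTR, and NDUFB4 at 279 CPM per kb in shNSD2 and 191 in shCTR libraries. The median subunit was at 97.5 CPM per kb in shNSD2 and 71.2 in shCTR for complex IV, 76.8 in shNSD2 and 50.7 in shCTR for complex III, 35.2 in shNSD2 and 25.7 in shCTR for complex I, and 26.9 in shNSD2 and 23.9 in shCTR for complex II. At the low end NDUFV2 had 1.02 CPM per kb in shNSD2 and 1.61 in shCTR libraries, while the median of the 7 nuclear core subunits of complex I, to which it belongs, was 27.3 in shNSD2 and 22.5 in shCTR. Merged exons can exceed the transcript in use, so these levels are approximate.

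Among the members, fold changes were smaller in genes of longer exon length. Across the 62 subunit genes the log2 fold change against log2 merged exon length had Pearson r = -0.36 and Spearman rho = -0.53, a description over genes that share libraries and are not independent replicates. Of 29 subunits with under 2000 bases of exon, 23 were called higher, with a median log2 fold change of 0.50, against 17.7% called higher and a median of 0.14 among all genes of that length. Of 15 with 2000 to under 4000 bases, 7 were called, with a median of 0.35, against 21.5% and 0.10 among all such genes. Of 18 with 4000 bases or more, 6 were called, with a median of 0.31, against 11.7% and -0.07. The median of all genes was thus also higher in the shorter classes, and the subunits' median lay above it in each class. After a correction for GC content and exon length, 41 subunits were called higher, against 16.9% of all genes, and the subunits' median was 0.40. Of the 36 called without it, 30 were kept and 6 were lost (COX8A, NDUFA11, NDUFAB1, NDUFB7, NDUFB10 and UQCR11), and 11 others were gained.

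**Figure D5:**
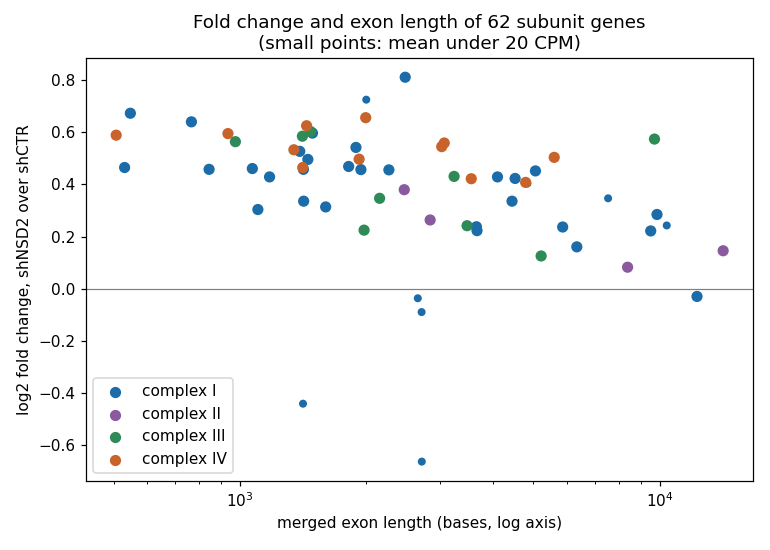
Log2 fold change, shNSD2 over shCTR, against merged exon length in bases (log axis) for the 62 subunit genes, coloured by complex; small points have a mean under 20 CPM. Values fall towards longer genes (Spearman rho -0.53), and the negative values among short genes belong to subunits under 20 CPM.

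Lists of genes that build or supply the complexes had lower medians than the subunits' 0.43. Over all genes 15.5% were called higher and 15.2% lower. Of 19 complex I assembly factors 4 rose (21.1%) and 0 fell (median log2 fold change 0.16), among them NDUFAF3 at 107 ± 8.11 CPM in shNSD2 and 70.6 ± 11.7 CPM in shCTR libraries and ECSIT at 90.1 ± 4.84 CPM in shNSD2 and 66.7 ± 8.48 CPM in shCTR libraries (SD, n = 3 each). At an unadjusted p under 0.05 edgeR had 0 of these factors lower. Of 39 assembly factors of complexes II to V 13 rose (33.3%) and 2 fell (5.13%), with a median of 0.33. UQCC2, needed for complex III assembly, was higher by 0.55 and HIGD2A, a complex IV factor, by 0.63 on the log2 scale. COX18, which helps insert a mitochondrially made complex IV subunit into the membrane, fell by 0.34 on the log2 scale, as did COA7. With a library left out, 1 to 10 complex I factors and 3 to 22 of the others were called higher, fewest without shNSD2 3 or shCTR 2 and most without shCTR 4.

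Of 15 genes for coenzyme Q and cytochrome c 4 rose (26.7%), COQ5 (0.55) and COQ10B (0.41) first by p, and PDSS1, which helps make the tail of coenzyme Q, fell by 0.28 on the log2 scale. Cytochrome c itself, CYCS, had 362, 374 and 381 CPM in shNSD2 libraries and 276, 311 and 393 CPM in shCTR libraries, with shCTR 4 the highest of all 6, and was not called. Of 19 genes of the tricarboxylic acid cycle and pyruvate dehydrogenase 7 rose (36.8%) and 1 fell (median 0.19). PDHA1 had 168, 162 and 167 CPM in shNSD2 libraries, against 104, 115 and 147 CPM in shCTR libraries. Subunits of the same enzyme, isocitrate dehydrogenase, went opposite ways, IDH3G by 0.40 and IDH3A by -0.29 on the log2 scale. Of 30 tested import and carrier genes 5 rose, a share of 16.7% that is near the 15.5% of all genes, and 0 fell (median 0.26), with TIMM17B (0.47) and TOMM7 (0.53), parts of the inner and outer membrane translocases, first by p. At an unadjusted p under 0.05 edgeR had 0 of these 30 lower. With a library left out, the numbers higher ran from 1 to 5 for coenzyme Q and cytochrome c, 1 to 11 for the tricarboxylic acid cycle and 1 to 19 for import. The lowest came without shNSD2 3 or shCTR 2, among others, and the highest without shCTR 4.

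Regulators of mitochondrial gene expression were called at rates no higher than all genes. Of 20, 2 rose and 2 fell, 10.0% each way against 15.5% and 15.2% of all genes, with a median log2 fold change of 0.04. With a library left out, 0 (without shNSD2 3 or shCTR 2) to 3 (without shCTR 4) were higher and 0 to 4 lower. SLIRP, which stabilises mitochondrial mRNA, had 94.1, 104 and 111 CPM in shNSD2 libraries, against 55.2, 63.4 and 86.9 CPM in shCTR libraries, and TFB1M, which methylates mitochondrial ribosomal RNA, was higher by 0.52 on the log2 scale. PPARGC1B, a coactivator of mitochondrial gene programmes, had 35.3, 34.5 and 27.7 CPM in shNSD2 libraries, against 55.9, 50 and 33.8 CPM in shCTR libraries, so that shCTR 4 lay within the shNSD2 range. TFAM, which packages and transcribes mitochondrial DNA, had 54.3, 57.8 and 53.7 CPM in shNSD2 libraries, against 64.4, 64.4 and 69.7 CPM in shCTR libraries, without overlap (log2 fold change -0.26 ± 0.08, SE; edgeR adjusted p = 0.0341). The transcripts of the promoter factors NRF1, GABPA and YY1 were not called, at log2 fold changes of -0.11, -0.15 and 0.04.

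Of 9 listed tissue isoforms of subunits 5 had a row and 4 were tested, of which 3 were called higher, against 15.5% of all genes. With a library left out, 2 to 3 of the 4 were called higher. NDUFA4L2, a paralogue of NDUFA4 known as a hypoxia target, had 10.3, 9.91 and 10.2 CPM in shNSD2 libraries, against 3.81, 5.21 and 6.41 CPM in shCTR libraries (log2 fold change 0.98 ± 0.17, SE; edgeR adjusted p = 0.00348). COX7B2, a paralogue of COX7B, had 5.0, 4.21 and 3.83 CPM in shNSD2 libraries, against 1.12, 1.93 and 2.45 CPM in shCTR libraries (log2 fold change 1.25 ± 0.25; edgeR adjusted p = 0.00607). In both, every shNSD2 library lay above every shCTR library, and shCTR 4 was again the nearest control. The third was UQCRHL, the near-identical copy of UQCRH, so its call may not be separate from that of UQCRH. At 10.1 ± 0.191 CPM in shNSD2 and 5.14 ± 1.30 CPM in shCTR libraries (SD, n = 3 each), NDUFA4L2 remained far below NDUFA4 itself, which averaged 274 ± 13.3 CPM in shNSD2 and 205 ± 60.7 CPM in shCTR libraries.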

How the data were processed

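RNA-seq of C42 cells was analysed in 3 shNSD2 and 3 shCTR libraries, grouped by sample title. The authors deposited raw counts of reads per gene, judged from whole numbers with unequal totals. Per the submitters' processing notes they used CASAVA 1.8.2, STAR 2.6.0a and GRCh38. Which counting program, annotation and strand setting they used is not stated in any source used here, so reads of overlapping, antisense or near-identical genes cannot be told apart. The test across all genes was edgeR 4.0.16 under R 4.3.3 (filterByExpr by group, TMM, quasi-likelihood test, two-sided, no covariate). The filter left 17160 genes and removed 14253, and p-values were Benjamini-Hochberg adjusted over those tested, with calls under 0.05. The common biological coefficient of variation was 0.106. Members were read from that fit. The fit was also run on simulated counts in which all genes shared the same dispersion and the changes set were larger than the subunits' median. That run does not test the calls reported here.

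Coordinates and merged exon lengths came from GENCODE 29 on GRCh38, which holds 31313 of the identifiers. Promoters came from RefSeq (GRCh38.p14). The members and the gene lists were chosen with earlier results of these data known. Genes named by rule were NSD2, per complex the 3 called of smallest p in each direction (with the 2 of highest CPM where fewer than 2 were called), the 5 largest fold changes each way, the 3 highest CPM per kilobase and 2 called members per list. Others were chosen after their values were seen, to describe a class or a role. Alternatives were other scaling factors, DESeq2 1.42.0, limma 3.58.1 (voom), other filters, robust dispersion, a replicate block, a correction for GC content and exon length, and each library left out. 1 subunit is counted but not reported by itself here. No 2 libraries of a group agreed within sampling noise.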

Additional observations from a re-analysis of the deposited data

How the results depend on the processing

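Calls depended on the libraries kept and on few other settings. The number of subunits called higher, 36, ran from 0 to 55 when a library was left out, and the number lower, 0, from 0 to 1. By complex the number higher then ran from 0 to 32 in complex I, 0 to 3 in complex II, 0 to 8 in complex III, 0 to 12 in complex IV and 2 to 16 in ATP synthase, and the number lower in complex I from 0 to 1. The complex II median ran from 0.13 to 0.32. Over all genes, 1116 were then higher and 1320 lower of 17622 without shNSD2 3, the fewest. The most were 4251 higher and 4011 lower of 17756, without shCTR 4. Fewer libraries were used in each of these fits, and why shCTR 4 differs was not tested.

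The replicate numbers do not pair the libraries by the labels, and same-numbered libraries did not deviate together (r = -0.05 for number 1 and -0.06 for number 2). The replicate block leaves shNSD2 3 and shCTR 4 out of the contrast, since only numbers 1 and 2 are shared. This drops the highest control for most subunits and leaves few libraries to estimate spread. With the block 51 subunits were higher and 1 lower, against 3242 higher and 3001 lower of all 17160 genes tested. The block gave 30 higher and 1 lower in complex I and 2 higher in complex II. The block with the GC content and exon length correction gave 52 higher and 1 lower, against 3330 higher and 2543 lower of all 17160 genes. In complex I 30 were higher and 1 lower, and in complex II 3 were higher with a median of 0.43. The correction alone gave 3 higher and a median of 0.32 in complex II, and a median of 0.28 in complex III. The complex III median was 0.345 with the block and correction. Under the other settings 36 to 42 subunits were higher. The calls higher among all genes then ran from 2392 of 31401 without the low-count filter to 3008 of 17160 with upper-quartile factors.

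Some single log2 fold changes turned sign, from 0.23 in CYC1 and from near 0 in the others. CYC1 was at -0.05 with the correction and -0.012 with the block and correction. NDUFC2 was at 0.055 with the block and 0.032 with the block and correction, and NDUFS1 at 0.011 with the block, 0.216 with the correction and 0.299 with both, where it was called higher (edgeR adjusted p = 0.0399). With a library left out, NDUFA13 ran from -0.185 to 0.034, NDUFC2 from -0.139 to 0.126 and NDUFS1 from -0.088 to 0.024. The causes were not tested. At this depth the 4 pseudogene rows and ATP5L2 stayed below the low-count filter.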
